A study of Mus musculus with 8 samples.

Results

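The genes described here encode surface coreceptors of B cells and the phosphatases that act with them: Cd22, Cd72, Cd24a, Fcgr2b, Fcrla, Cr2, Bst1, Ptprc and Ptpn6, 9 of 21900 protein-coding genes in the annotation of mouse build GRCm38.p6. A peak was counted for one of them when its summit lay inside the gene body, or lay outside all protein-coding genes with that gene's bound as the nearest within 100 kb. By this rule 15 of the 5757 peaks in the 4 deposited lists belonged to the 9 genes. The lists come from chromatin immunoprecipitation with sequencing (ChIP-seq) in A-MuLV transformed pro-B cells, which are early B-lineage cells immortalised by the Abelson murine leukaemia virus and grown in culture. In all groups, controls included, the cells' own EBF1 had been replaced by an exogenous modified form that carries a degron tag, and the small molecule dTAG-13 marks such a tagged protein for degradation. EBF1, a DNA-binding factor without which B-cell development stalls, was precipitated from the line EBF1-dTAG_C after dTAG-13 at 0.5 µM for 6 h and after DMSO. Brg1, the motor subunit of BAF complexes that move nucleosomes, was precipitated from the line EBF1-dTAG_N after the same dTAG-13 treatment and after DMSO. The treatment labels of the DMSO samples give 6 h and their titles give 0 h. Each group was 1 library, which leaves differences between conditions without replicates and without a p-value, and EBF1 itself was not mapped in the line used for Brg1.

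The B-cell receptor is held in check by surface proteins that are phosphorylated when it fires. Cd22, Cd72 and Fcgr2b carry inhibitory tyrosine motifs in their cytoplasmic tails, and Cd22 and Cd72 bind the cytoplasmic tyrosine phosphatase SHP-1, the product of Ptpn6, through them. Ptprc encodes CD45, the transmembrane phosphatase that removes the inhibitory phosphate from Src-family kinases, while Cr2 encodes the complement receptor CD21, which amplifies the signal. Cd24a (heat-stable antigen) and Bst1 (BP-3, an ectoenzyme related to CD38) are GPI-anchored surface proteins used to stage early B cells, and Fcrla is an Fc receptor-like protein that stays inside the cell.

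After dTAG-13, Brg1 peaks were assigned to all 9 genes, 13 peaks in total, and in DMSO to Ptpn6 alone, with 1 peak. EBF1 peaks were assigned to 0 of the 9 genes after dTAG-13 and to Cd72 alone in DMSO. Among all protein-coding genes, 12.2% had a Brg1 peak after dTAG-13 and 0.817% had one in DMSO. For EBF1 the shares were 0.0228% after dTAG-13 and 1.28% in DMSO. The counts describe the 9 genes and are not a test. The genes were chosen with earlier results of these data known, so setting them beside all genes gives no independent support. The stretch from which a gene could draw peaks, its body plus the intergenic bases nearest to it, had a median of 42.3 kb for the 9 genes and 45.7 kb for all genes.

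**Figure D1:**
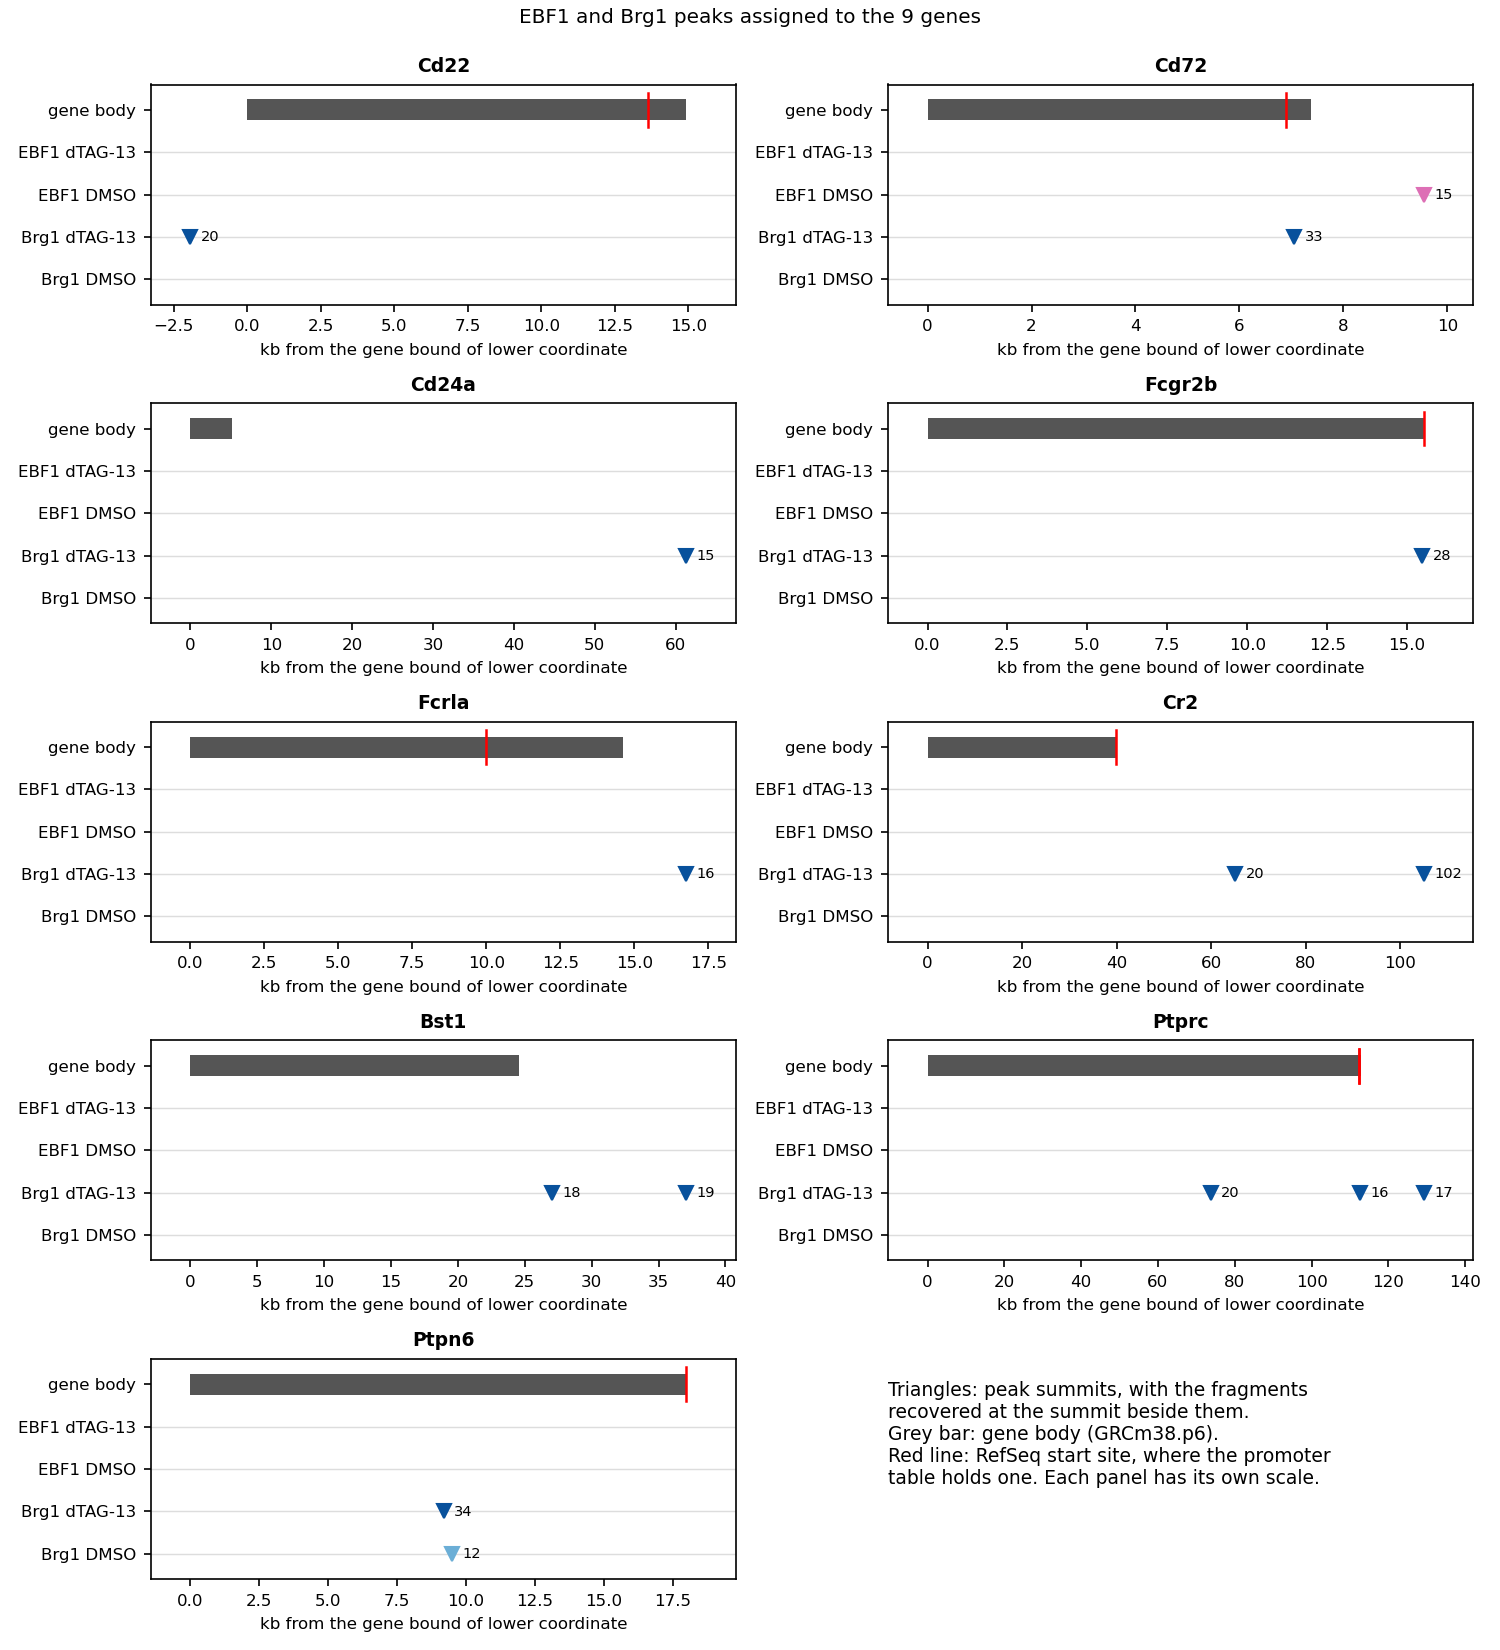
Summits of EBF1 and Brg1 peaks assigned to each of the 9 genes, by distance in kb from the gene bound of lower coordinate (each panel has its own scale), with 1 row per peak list. Numbers beside the triangles are fragments at the summit. All 9 panels have a Brg1 dTAG-13 summit, Ptpn6 alone has a Brg1 DMSO summit, and Cd72 alone has an EBF1 summit, in DMSO.

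The 2 Brg1 libraries differed in background. Solving the authors' fold enrichment and p for each peak gave whole fragments at the summit and a local background. The lowest local background of the list was 2.15 fragments per base after dTAG-13 and 0.607 in DMSO, a ratio of 3.54, and the median over its peaks was 3.09 after dTAG-13 and 0.984 in DMSO. The weakest summits had 10 fragments after dTAG-13 and 8 in DMSO. The EBF1 values came out as whole fragments only after a scaling of the pileup, and on that scale the lowest backgrounds were 1.65 after dTAG-13 and 1.77 in DMSO. The lists held 5 EBF1 peaks after dTAG-13 and 312 in DMSO, and 5206 Brg1 peaks after dTAG-13 and 234 in DMSO. They do not give total read numbers, so sequencing depth itself was not measured. Of early B-cell marker genes, 9 of 11 had a Brg1 peak after dTAG-13 and 5 of 11 in DMSO. The T-cell markers had 2 of 8 (Cd3d and Cd28) after dTAG-13 and 0 in DMSO, and the myeloid markers 0 of 7 in both. Of all protein-coding genes, 12.2% had a Brg1 peak after dTAG-13 and 0.817% in DMSO, so 0 of 7 says little about lineage. Peaks do not measure expression, so these counts do not check the cell type label.

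Among the genes with a promoter window, 3 of 7 had a Brg1 peak over their annotated promoter after dTAG-13: Cd72, Fcgr2b and Ptprc. RefSeq promoter windows, 250 bases before to 50 after a start site, were held for 7 of the genes (not for Cd24a and Bst1). None of the 7 had a Brg1 peak over its window in DMSO, or an EBF1 peak in either condition. Over all 17492 genes with a window, 2.27% had a Brg1 peak on it after dTAG-13 and 0.0286% in DMSO, and 0.0229% had an EBF1 peak on it after dTAG-13 and 0.114% in DMSO. The 250 bases before the start are given here for 3 promoters under a peak, for Ptprc those of the start whose window held the peak's summit, 5′ to 3′ on the gene's strand, from RefSeq and build GRCm38.p6. Capitals mark matches to any of the 6 short motifs that were searched.
Cd72 (chr4:43454627-43454876, minus strand): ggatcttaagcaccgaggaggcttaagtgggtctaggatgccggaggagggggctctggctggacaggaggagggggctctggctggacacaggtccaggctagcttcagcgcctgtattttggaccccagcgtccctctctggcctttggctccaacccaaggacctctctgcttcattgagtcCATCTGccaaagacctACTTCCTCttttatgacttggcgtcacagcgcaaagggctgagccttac
Fcgr2b (chr1:170976072-170976321, minus strand): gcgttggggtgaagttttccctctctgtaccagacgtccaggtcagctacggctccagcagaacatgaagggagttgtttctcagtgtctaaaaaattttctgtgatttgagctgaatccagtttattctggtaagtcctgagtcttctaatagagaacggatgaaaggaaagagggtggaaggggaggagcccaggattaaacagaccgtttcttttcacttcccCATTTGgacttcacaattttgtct
Ptprc (chr1:138175306-138175555, minus strand): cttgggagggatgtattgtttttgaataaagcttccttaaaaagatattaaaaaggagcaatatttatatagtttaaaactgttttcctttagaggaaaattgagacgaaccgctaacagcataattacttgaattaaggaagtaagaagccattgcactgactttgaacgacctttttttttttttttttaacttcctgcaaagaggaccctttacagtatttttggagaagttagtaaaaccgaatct

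The motifs were searched on both strands of the 300-base windows. They were TCCCNNGGG and its core CCCNNGGG for EBF1 (every match to the longer one is also a match to the core), CANNTG for the E-box, GAGGAAGT for ETS factors, TGGGAA for Ikaros and TGTGGTT for Runx. In the Cd72 window the ETS motif, on the opposite strand, occupied bases 202 to 209 of 300, and an E-box bases 186 to 191, with the start after base 250. The ETS motif was present in 3.13% of 21263 windows of protein-coding genes, and in 7.91% of the 430 windows under a Brg1 dTAG-13 peak. In the Fcgr2b window an E-box occupied bases 227 to 232. The Ptprc window before the start at 138175305 held an E-box at bases 282 to 287, beyond the printed ones, and no other match. The window of the other Ptprc start, at 138175126, lay under the same peak with bases 1 to 81 and held E-boxes at bases 103 to 108, 147 to 152 and 274 to 279. E-boxes occurred in 69% of all windows, and in 63% of those under a Brg1 dTAG-13 peak. Neither EBF1 motif was found in any of these windows. Both were found in the Cd22 window, which no peak of the 4 lists touched, and which is shown in part because it held the only EBF1 motif among the 7 genes. Capitals mark overlapping matches to TCCCNNGGG on both strands.
Cd22 (chr7:30879048-30879097, minus strand): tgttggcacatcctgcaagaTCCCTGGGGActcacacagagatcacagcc
That motif occurred in 7.26% of all windows, and the core in 15.6%. A match is a run of letters and does not show binding.

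By −log10 p the highest Brg1 peaks of the set were those of Cd72 and Fcgr2b. Both encode inhibitory receptors, but the peak of Cd22, another such receptor, ranked only 524 of 5206. Cd72 (gene ID 12517, chromosome 4, 43447724 to 43455102) is a C-type lectin whose tail recruits SHP-1. Its Brg1 peak after dTAG-13 (chromosome 4, 43454633 to 43455089) had 33 fragments at the summit over a local background of 2.15, and the authors' fold enrichment was 10.8. The summit lay inside the gene, 147 bp upstream of the RefSeq start. The peak ranked 29 of 5206 in its list and covered bases 1 to 244 of the promoter window. In DMSO the nearest Brg1 peak of the list was 1216 kb away. At this gene a high Brg1 peak was present in the dTAG-13 list and none in the DMSO list.

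Cd72 was also the only one of the 9 genes with an EBF1 peak. That DMSO peak (chromosome 4, 43457156 to 43457310) lay outside the gene, 2641 bp upstream of the RefSeq start and 2165 bp from the gene bound, with 15 fragments at the summit and a fold enrichment of 4.75. It stood near the bottom of its list, at rank 307 of 312, and its −log10 q of 2.3 is below both stricter cutoffs tried (5 and 10), so at either of them 0 of the 9 genes had an EBF1 peak. No EBF1 peak lay there after dTAG-13. The weakest of the 5 peaks in that list had 25 fragments and a −log10 q of 7.57, so a list this short does not show whether a site as low as that of Cd72 could have been called. Of all EBF1 DMSO peaks, 1.6% were found again after dTAG-13. The EBF1 site overlapped no Brg1 peak in either condition. The Brg1 summit after dTAG-13 was 2494 bp from it, and the nearest Brg1 summit in DMSO was 1214 kb away. Of all EBF1 DMSO peaks, 17.9% overlapped a Brg1 peak after dTAG-13 and 14.1% in DMSO.

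**Figure D2:**
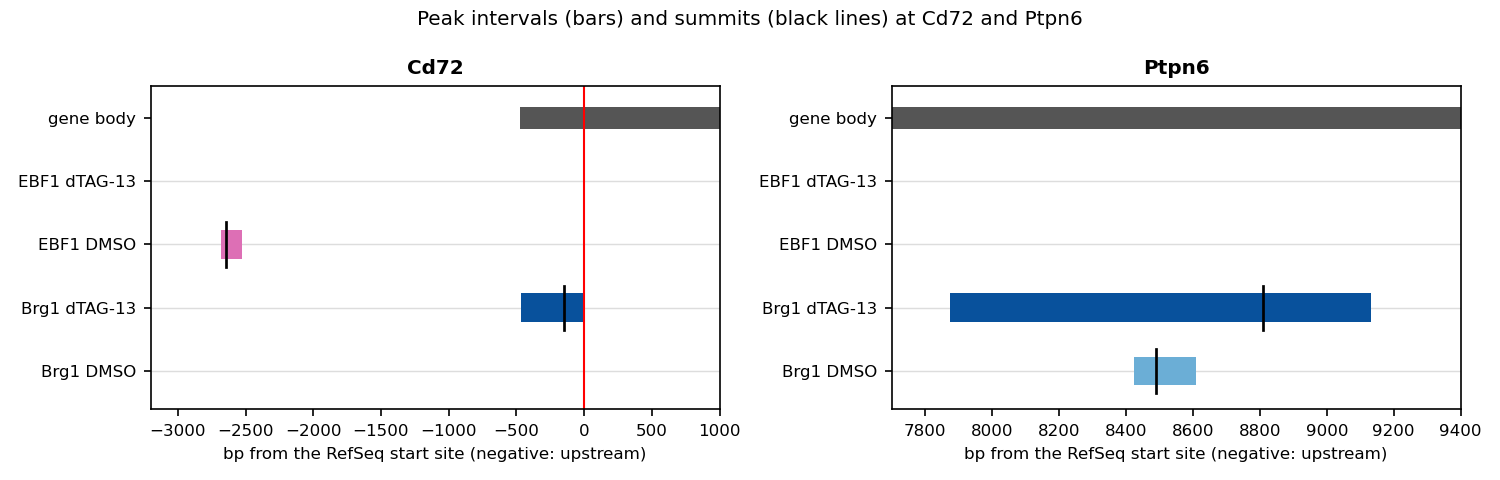
Peak intervals (bars) and summits (black lines) in each of the 4 lists at Cd72 and Ptpn6, by distance in bp from the RefSeq start site, with negative values upstream and the start of Cd72 in red. At Cd72 the Brg1 dTAG-13 peak ends next to the start and the EBF1 DMSO peak lies 2641 bp upstream, and at Ptpn6 the Brg1 dTAG-13 peak of 1260 bp contains the DMSO peak of 184 bp.

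Fcgr2b (gene ID 14130, chromosome 1, 170960558 to 170976071) encodes the inhibitory IgG receptor of B cells. Its Brg1 peak after dTAG-13 (chromosome 1, 170975894 to 170976255) had 28 fragments at the summit over a background of 2.33 and a fold enrichment of 8.7. The summit lay 39 bp downstream of the RefSeq start, the closest to a start among the 9 genes, and the peak ranked 96 of 5206. The peak covered bases 67 to 300 of the promoter window. In DMSO the nearest Brg1 peak was 4444 kb away. Within 100 kb of Fcgr2b, 7 further Brg1 dTAG-13 summits were assigned to other genes, of which 2 went to Fcgr3 (an activating IgG receptor), 3 to Atf6, 1 to Fcrla and 1 to the predicted gene Gm39701.

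Cd22 (gene ID 12483, chromosome 7, 30865404 to 30880342), a sialic-acid-binding receptor that recruits SHP-1, differed from these in position. Its Brg1 peak after dTAG-13 (chromosome 7, 30863318 to 30863637) lay beyond the 3′ end of the gene, 1941 bp from its bound and 15.6 kb downstream of the RefSeq start. The summit had 20 fragments over a background of 2.15, a fold enrichment of 6.68 and rank 524. The nearest RefSeq start of any gene was that of Ffar1, at 1993 bp, so by distance to a start the peak is nearer to this fatty acid receptor than to Cd22. No Brg1 peak lay within 100 kb of Cd22 in DMSO, nor an EBF1 peak in either condition.

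The 2 phosphatase genes both held Brg1 peaks within their bodies after dTAG-13. Ptpn6 (gene ID 15170, chromosome 6, 124720707 to 124738709) was the only one of the 9 genes with Brg1 in both conditions. Its peak after dTAG-13 (chromosome 6, 124729577 to 124730836) was 1260 bp wide, with 34 fragments at the summit, a local background of 5.02 and a fold enrichment of 5.81. Its peak in DMSO (chromosome 6, 124730101 to 124730284) was 184 bp wide, with 12 fragments, a background of 0.607 and a fold enrichment of 8.09. The fold enrichments are each relative to their own library and are not comparable in size. Both summits lay well inside the gene, 8810 bp downstream of the RefSeq start after dTAG-13 and 8491 bp downstream in DMSO. The dTAG-13 peak contained the whole DMSO peak, but the 184 shared bases were 14.6% of its width and the summits were 319 bp apart. The peak was therefore found again by overlap of 1 bp, and not under a reciprocal overlap of 50% or with summits within 250 bp. Multiplied by the background ratio, the 12 DMSO fragments would be 42.4 (21.9 to 74.1, exact Poisson 95% interval), a range that includes the 34 counted after dTAG-13. Of all Brg1 DMSO peaks, 54.3% were found again after dTAG-13.

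Ptprc (gene ID 19264, chromosome 1, 138062859 to 138175756) had 3 Brg1 peaks after dTAG-13, the most of the 9 genes, and 0 in DMSO. Its gene body is the longest of the 9 (113 kb), and it could draw peaks from 262 kb, against a median of 45.7 kb for all genes. Of all protein-coding genes 2.26% had 3 or more after dTAG-13. The highest (chromosome 1, 138136261 to 138136717) lay inside the gene, 38.5 kb downstream of the nearest RefSeq start, with 20 fragments, a fold enrichment of 6.5 and rank 599. The promoter peak (chromosome 1, 138175296 to 138175579) had 16 fragments and a fold enrichment of 5.26, with its summit 107 bp upstream of the start at 138175305. A further peak (chromosome 1, 138191927 to 138192141), with 17 fragments and a fold enrichment of 5.72, lay 16.7 kb upstream of that start. The exact Poisson 95% intervals of the 3 summits, 12.2 to 30.9, 9.15 to 26 and 9.9 to 27.2 fragments, overlapped. Overlap of intervals is not a test, so whether the heights differ was not tested. The nearest Brg1 peak in DMSO was 6709 to 6764 kb from them.

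The GPI-anchored genes and the complement receptor drew their peaks from outside the gene, as did Cd22 and Fcrla. Bst1 (gene ID 12182, chromosome 5, 43818880 to 43843468) had 2 Brg1 peaks after dTAG-13 and 0 in DMSO, both beyond its bound of higher coordinate. The stronger (chromosome 5, 43855838 to 43856066), with 19 fragments and a fold enrichment of 5.7, was 12493 bp from Bst1 and 12848 bp from the RefSeq start of Cd38, a related ectoenzyme gene. The weaker (chromosome 5, 43845764 to 43846023) was 2450 bp from Bst1, with 18 fragments and a fold enrichment of 3.71. Cd38 itself held 4 Brg1 peaks after dTAG-13, the highest with 33 fragments. Cd24a (gene ID 12484, chromosome 10, 43579169 to 43584265) had 1 Brg1 peak after dTAG-13 (chromosome 10, 43640388 to 43640630), with 15 fragments and a fold enrichment of 5.09, at 56.2 kb from the gene. The RefSeq start nearest to it was that of the long noncoding RNA Gm51800, at 16767 bp. The nearest peak to it in another list was an EBF1 DMSO peak at 106 kb, which the rule did not assign to Cd24a.

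Cr2 (gene ID 12902, chromosome 1, 195136811 to 195176880) is the last protein-coding gene of the annotation on chromosome 1, so no other gene competed for the peaks beyond it. Its nearer Brg1 dTAG-13 peak (chromosome 1, 195201511 to 195201954) lay 25.1 kb from the gene, with 20 fragments over a background of 5.86, a fold enrichment of 3.06 and rank 4595 of 5206, the lowest of the 13. The farther one (chromosome 1, 195241619 to 195241839) was 64.8 kb away. It had 102 fragments, the most of the 13, but over a local background of 39.3, which is 18.3 times the lowest in the list. Its fold enrichment of 2.55 was the smallest of the 13. In the whole list 12 of 5206 peaks (0.231%) had a local background above 5 times the lowest. In the Brg1 DMSO list 34 of 234 peaks (14.5%) stood above 5 times the lowest of that list. What raised the background at the farther Cr2 peak was not tested. Without such peaks Cr2 kept its nearer peak.

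Fcrla (gene ID 98752, chromosome 1, 170917594 to 170932216) lies near Fcgr2b, with the predicted gene Gm39701 between them. Its Brg1 peak after dTAG-13 (chromosome 1, 170934244 to 170934514) was 2139 bp outside the gene and 6.77 kb upstream of the RefSeq start. It had 16 fragments, a fold enrichment of 4.34 and rank 2998. In DMSO the nearest Brg1 peak was 4403 kb away, and no EBF1 peak lay within 100 kb of the gene in either condition.

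Among themselves, the 13 Brg1 dTAG-13 peaks had 15 to 102 fragments at the summit (median 20), against 10 to 375 (median 18) over the list. Their median percentile in the list, by −log10 p, was 80.7, and 10 of the 13 stood above the list's median. By location, 5 summits (38.5%) lay inside a gene, against 52.1% of the list, and 5 lay outside within 20 kb (38.5%, against 25.4%). The other 3 (23.1%, against 13.8%) lay farther out, at Cr2 and Cd24a. With the distance limited to 20 kb, 7 of the 9 genes kept a peak, all but those 2, against 11.2% of all genes. A Brg1 summit inside the gene was present after dTAG-13 at 4 genes (Cd72, Fcgr2b, Ptprc and Ptpn6), against 7.98% of all genes, and in DMSO at 1 gene (Ptpn6), against 0.388%. No EBF1 summit lay inside any of the 9 genes, against 0.00913% of all genes after dTAG-13 and 0.662% in DMSO. With 2 or more peaks there were 3 genes (Ptprc, Cr2 and Bst1), against 4.53% of all genes. Those genes could draw peaks from 262, 143 and 55.6 kb, each above the median of 45.7 kb for all genes. Cd24a, with 124 kb, had 1 peak. The part of this size in the counts was not tested. None of the 13 peaks overlapped an EBF1 peak of either condition, a count that says little, since 1.09% of all Brg1 dTAG-13 peaks did.

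**Figure D3:**
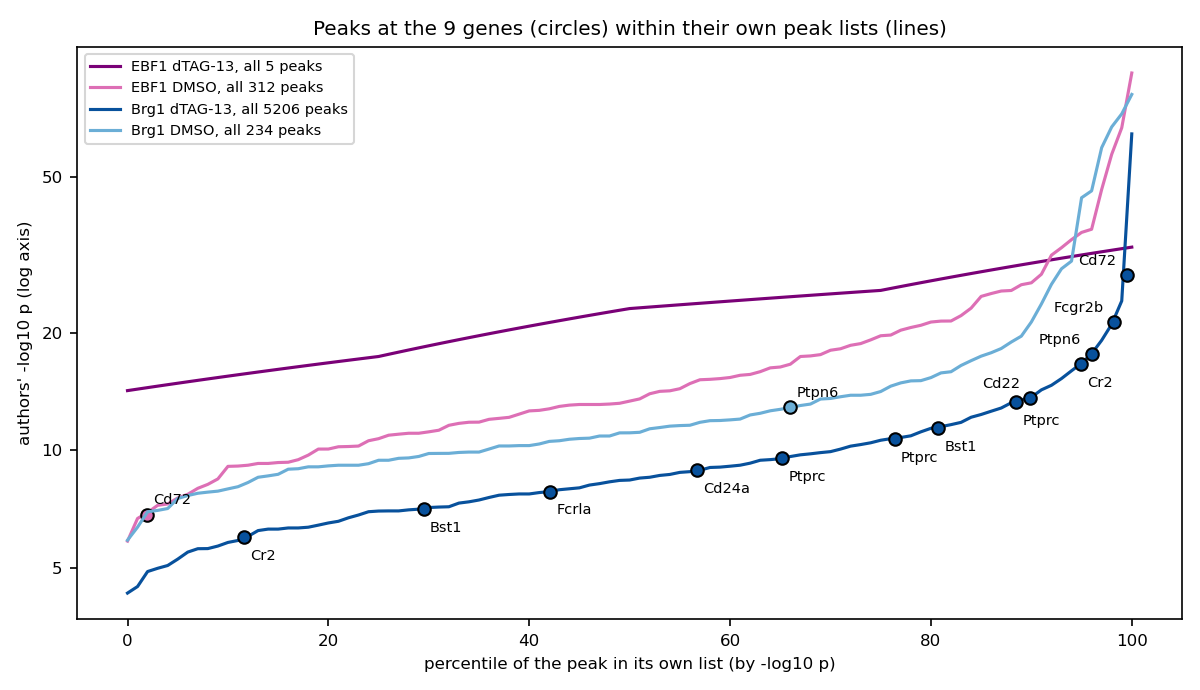
The authors' −log10 p of each peak at the 9 genes (circles) against its percentile in its own list, with lines for all peaks of each list on a log axis. Cd72 (99.5), Fcgr2b (98.2) and Ptpn6 (96) stand at the top of the Brg1 dTAG-13 list, whereas the EBF1 peak of Cd72 stands at percentile 1.92 of the EBF1 DMSO list.

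The Brg1 dTAG-13 peaks were also set beside the DMSO list on its own background. Divided by the background ratio of 3.54, the 33 fragments at Cd72 come to 9.33 and the 28 at Fcgr2b to 7.92. With scaled fragments cut down to whole numbers, these would give −log10 p values of 8.97 and 6.3 over the scaled background. Both are above the lowest of the DMSO list, 5.89. The other 11 peaks fell below it, from 2.15 at the nearer Cr2 peak to 5.59 at Ptpn6. By fragments, Cd72, Ptpn6 and the farther Cr2 peak lay above the 8 of the weakest DMSO summit. Fcgr2b, at 7.92, lay just below those 8 fragments, so whether it passes depends on the limit used. At Ptpn6 the scaled value was below that lowest −log10 p although the DMSO list held a peak there, with a −log10 p of 12.9. That peak had a different summit and a background of 0.607, whereas the scaled background is 1.42. The scaled fragments at Ptpn6, 9.61, lay within the exact Poisson 95% interval of its 12 DMSO fragments (6.2 to 21). The scaled −log10 p thus missed the call at Ptpn6, and the scaled fragments did not miss the interval. Cutting 9.61 down to a whole number lowered that −log10 p, and how much of the miss came from this was not tested. The part of depth in the absence of DMSO peaks was not tested. Across the whole dTAG-13 list 194 of 5206 peaks (3.73%) passed the same limit, and of those 156 (80.4%) had no DMSO peak either. Cd72 and Fcgr2b were among those 156. Over the list, 126 dTAG-13 peaks overlapped a DMSO peak, and only 38 of these passed the limit. A value below the limit therefore does not show that no peak could be called in DMSO. The intervals cover counting error only, and the scaling assumes that fragments at a site change with the lowest background.

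**Figure D4:**
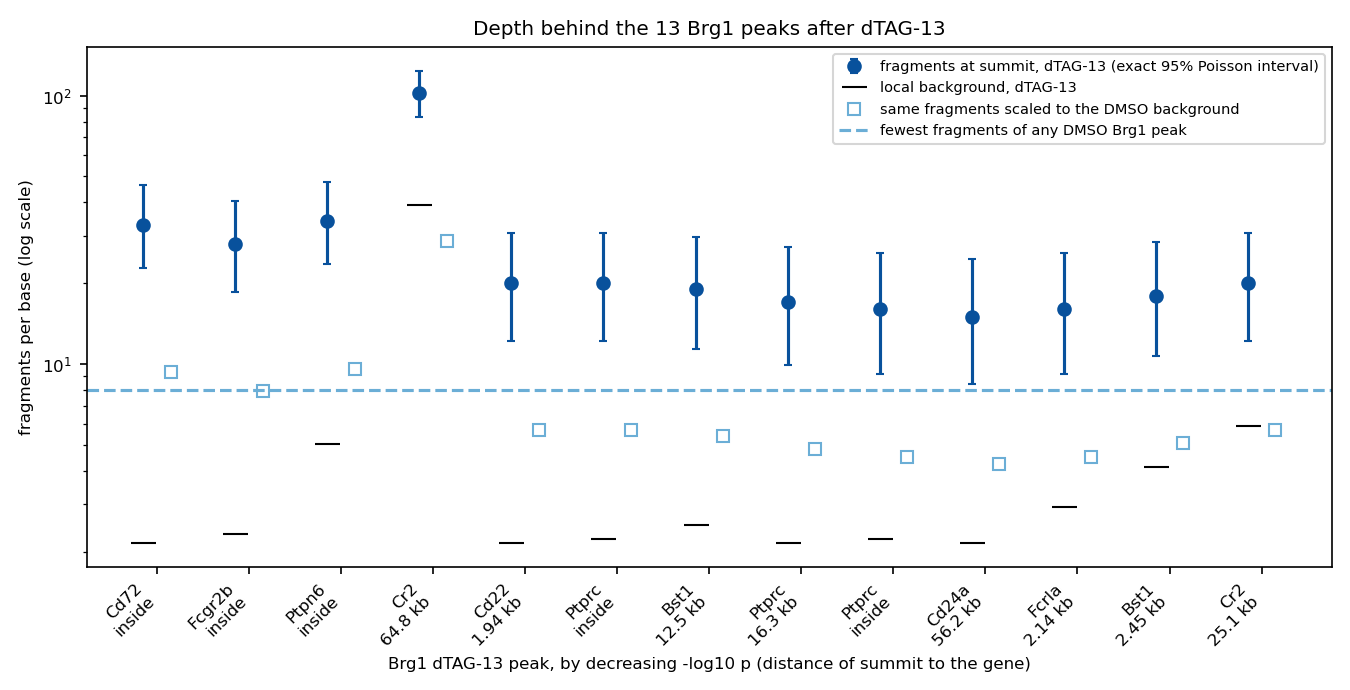
Fragments at the summit of the 13 Brg1 dTAG-13 peaks with exact Poisson 95% intervals, their local background, and the same fragments divided by the background ratio of 3.54, on a log axis. The dashed line is the 8 fragments of the weakest DMSO Brg1 peak, and the scaled values of Cd72, Ptpn6 and the farther Cr2 peak lie above it.

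Related genes were described from a list of 35 B-cell coreceptors, inhibitory receptors and phosphatases that excludes the 9. After dTAG-13, 16 of the 35 (45.7%) had a Brg1 peak, against 12.2% of all genes. The list was chosen with earlier results of these data known, and gene size was not matched. The share is therefore a description and not independent support. For EBF1, 0 of the 35 genes had a peak after dTAG-13 and 1 had in DMSO (2.86%, against 1.28% of all genes). That gene was Inpp5d, the SHIP-1 lipid phosphatase recruited by Fcgr2b, with 2 EBF1 peaks inside it in DMSO, the higher of 26 fragments, and 9 Brg1 peaks inside it after dTAG-13. By −log10 p the highest Brg1 dTAG-13 peaks of the list were those of Cd55 (a complement regulator, 19.3), Cd38 (16.8), Siglecg (an inhibitory relative of Cd22, 16.3), Inpp5d (16.2) and Ptpn22 (a tyrosine phosphatase, 15.9), all below Cd72 (28.1) and Fcgr2b (21.3).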

How the data were processed

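Peak lists of 4 ChIP libraries (EBF1 and Brg1, each after dTAG-13 and after DMSO, 1 library per group) were used; the 4 inputs were not analysed here. MACS2 2.2.7.1, Bowtie2 2.3.5.1, deepTools 3.3.2 and SAMtools 1.10 and the builds GRCm38 and mm10 are named, without their settings, in the submitters' processing notes. Filters, calling settings and the control file: not given in the sources used here. In the deposited lists, called per library, the authors' fold enrichment is a ratio of summit pileup plus 1 to local background plus 1, their p and q values are −log10 values, and their score is 10 times the −log10 q, cut to a whole number. Another deposited value is the summit's distance from the peak start.

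Fragments and local background were recovered by solving fold enrichment and Poisson p together, which matched −log10 p within 0.001 for 100% of peaks in every list, with scalings of 0.818 (EBF1 dTAG-13) and 0.863 (EBF1 DMSO). The procedure was checked on simulated peaks. Python 3.11.15, NumPy 2.4.6, SciPy 1.17.1 and pandas 2.3.3 were used. Overlap meant at least 1 bp. Gene bounds and promoter windows are RefSeq's for GRCm38.p6, which gives no exons or introns, and noncoding genes were looked up too: no summit lay inside one. No genome was used, so planned sequence windows at summits outside promoters were not printed. All 9 genes are named, and of the related list those with EBF1 and the 5 highest after dTAG-13; further names illustrate. The related list's Brg1 result in DMSO and one marker list are not reported here. The genes and lists were chosen with earlier results of these data known.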

Additional observations from a re-analysis of the deposited data

Results flagged for a closer look

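The number of the 9 genes with a peak moved in opposite directions for the 2 proteins under the same treatment. The count after dTAG-13 minus that in DMSO was -1 for EBF1 (0 genes after dTAG-13, against Cd72 in DMSO) and 8 for Brg1 (9 genes after dTAG-13, against Ptpn6 in DMSO). All protein-coding genes moved the same way, with 0.0228% after dTAG-13 and 1.28% in DMSO for EBF1, and 12.2% after dTAG-13 and 0.817% in DMSO for Brg1, and nothing particular to the 9 genes is read from the pattern. This difference was not tested: there was a single library per condition, and EBF1 and Brg1 were mapped in different lines with different antibodies. The lowest local background was 2.15 in the Brg1 dTAG-13 library and 0.607 in the Brg1 DMSO library, and its part in the Brg1 count was not tested.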

How the results depend on the processing

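Of 36 alternatives over 8 counts, 28 stayed within 1.5 times the main count, 15 of them with 0 in both. At a −log10 q of at least 5 or at least 10, the number of the 9 genes with an EBF1 peak in DMSO was 0, against 1 with all peaks (all genes: 1.05% and 0.53%). For Brg1 the number with all peaks was 9 after dTAG-13 and 1 in DMSO. At the limit of 5 it was 7 after dTAG-13, without Cd24a and Fcrla, against 6.43% of all genes. In DMSO it was 1, against 0.484% of all genes. At the stricter limit of 10 it was 4 after dTAG-13 (Cd72, Fcgr2b, Cr2 and Ptpn6), against 1.56% of all genes. In DMSO it was then 0, against 0.1% of all genes. Cr2 passed only through its farther peak of high local background, and without such peaks (chosen after seeing the data) 3 genes passed, against 1.55% of all genes. With the Brg1 dTAG-13 list shortened to about the length of the DMSO list (239 peaks with ties, against 234), 3 genes had one (Cd72, Fcgr2b and Ptpn6), against 0.909% of all genes. The Brg1 peak of Ptpn6 was found again in 0 cases under a reciprocal overlap of 50% and 0 with summits within 250 bp; the dTAG-13 peak is 6.85 times as wide as the DMSO peak. Assignment by nearest bound, and leaving out peaks of high local background from the full lists (chosen after seeing the data), changed no count. No paired analysis was possible because each group is 1 library, and no replicate could be left out.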

Other observations

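The windows under Brg1 dTAG-13 peaks held the core EBF1 motif CCCNNGGG in 25.1% of 430 cases, against 15.6% of all 21263 windows. For the longer EBF1 motif TCCCNNGGG the gap was smaller, at 9.53% against 7.26%. The Ikaros motif TGGGAA was held in 20.2%, against 24.5%. Base composition was not matched between these sets. Within 100 kb of Cd72, 2 Brg1 dTAG-13 summits went to Sit1, an adaptor of lymphocyte signalling, and 1 to Tesk1, with 0 Brg1 summits there in DMSO.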
